A study of Arabidopsis thaliana with 12 samples.

Results

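Seedlings that over-expressed the zinc finger protein Zat12 were compared with wildtype seedlings after both had received hydrogen peroxide. The comparison used 6 of the 12 arrays of the study, namely the 3 labelled Zat12+H2O2 and the 3 labelled wildtype+H2O2, chosen by label alone. Every seedling was Arabidopsis thaliana of the Columbia background, 5 days old, raised in liquid MS culture and given 20 mM H2O2 for 1 hour. The Zat12 seedlings carried the gene behind the 35S-CaMV promoter, which drives expression in most tissues all the time, so over-expression preceded the peroxide. The labels give neither the number of independent transgenic lines nor whether replicates were separate cultures, so p-values measure only how much these arrays vary, which may be technical. Total RNA of whole seedlings was measured on Affymetrix ATH1 arrays, and the deposited value of each probe set was the linear MAS5 signal, scaled by the authors to a trimmed mean of 100.01 on each of the 6 arrays. Values in RNA of whole seedlings cannot tell fewer cells of a type from less RNA in each cell.

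ZAT12 is a small transcription factor with C2H2 zinc fingers and an EAR-type repression motif, and its own gene responds to reactive oxygen, high light, wounding and cold. Hydrogen peroxide is both a damaging oxidant and a signal, and plants remove it with ascorbate peroxidases, catalases, peroxiredoxins and apoplastic peroxidases. It also switches on heat shock proteins and other chaperones, which refold or hold damaged proteins. Late embryogenesis abundant (LEA) proteins protect cells from water loss in ripening seeds and, in seedlings, under drought or abscisic acid.

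The annotation used here names no probe set for ZAT12, so its level could not be identified. Whether a probe set without a gene in the annotation measures it was not examined. The peroxide label could be checked on STZ, another zinc finger repressor of the ZAT group, whose mean signal was 56.3 in untreated wildtype and 1238.7, 1309.3 and 1191.8 on the 3 treated wildtype arrays. The shoot marker RCA, the activase of Rubisco, read 6956.6, 6863.6 and 6663.2 in treated wildtype and 6924.3, 7402.8 and 6763.9 in treated Zat12. Pearson's r of log2 signals was 0.9756 to 0.9825 within the treated groups and 0.9599 to 0.9736 between them. The 25S ribosomal RNA control, which varied between 32.9 and 295.2 over the 12 arrays, averaged 231.7 ± 92.3 (SD, n = 3) in treated wildtype and 226.8 ± 81.9 (SD, n = 3) in treated Zat12.

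The question was which transcripts differ between Zat12 and wildtype seedlings once both have met H2O2. Of 13647 probe sets tested, 207 (1.52%) were higher and 191 (1.4%) were lower in Zat12, together 398 (2.92%), at an adjusted p below 0.05 in limma. The higher side included 14 LEA genes, the copper chaperone CCS, 5 genes of the heat shock list and 4 papain-type proteases. The lower side included 7 class III peroxidases and 3 plastid-encoded genes. Changes were mostly small: 45 of the higher and 24 of the lower probe sets moved at least 2-fold, and the median log2 difference was 0.73 among the higher and -0.63 among the lower ones, against -0.01 over all probe sets. In 396 of the 398 the 3 Zat12 signals lay entirely above or below the 3 wildtype signals, a separation seen in 23.5% of all tested probe sets. Exactly 1 gene was paired with 125 of the higher and 90 of the lower probe sets, and 80 and 93 had no gene in the annotation.

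**Figure D1:**
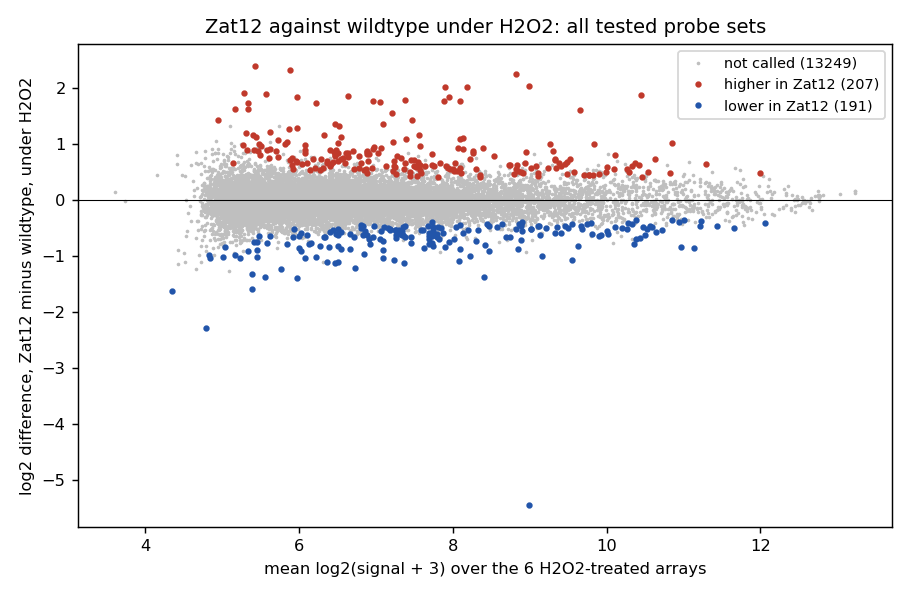
Each point is 1 of the 13647 tested probe sets, placed by its mean log2(signal + 3) over the 6 treated arrays (horizontal) and by its log2 difference, Zat12 minus wildtype under H2O2 (vertical). The 207 probe sets called higher (red) and 191 called lower (blue) spread over most of the signal range, and the lowest point, 254098_at, sits at -5.44.

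The counts rested on all of the arrays. Without wildtype + H2O2 replicate 1, 2 or 3 there were 53, 129 and 138 higher and 73, 99 and 72 lower probe sets. Without Zat12 + H2O2 replicate 1, 2 or 3 there were 84, 101 and 67 higher and 73, 122 and 67 lower. Leaving out untreated wildtype replicate 2, which enters only through the shared spread, gave 328 and 302. Same-numbered arrays of the treated groups deviated together only weakly (Pearson's r of 0.122 to 0.141). With the replicate number as a block the counts were 250 and 215 over 12 arrays and 533 and 480 over the 6 arrays compared.

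Of 21 tested members of the family, 14 were called higher and none lower, against 1.52% higher among all probe sets, and the median log2 difference was 1.21. This list was assembled after the values had been seen, so its count is a description. AT3G02480, an LEA family protein, read 128.7, 309.5 and 212.1 on the wildtype arrays and 1089.0, 776.1 and 1114.6 on the Zat12 arrays. Every Zat12 array was thus above every wildtype array, and wildtype replicate 1 was the lowest of the 6. The mean signal was 4.58-fold higher, with a log2 difference of 2.25 ± 0.24 (SE) and an adjusted p of 6.83e-05.

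AT3G15670, another LEA protein, gave 76.3, 210.4 and 186.6 in wildtype and 594.3, 421.3 and 502.0 in Zat12, a 3.21-fold difference with an adjusted p of 0.00164. LEA18 gave 47.1, 121.7 and 111.2 in wildtype and 321.4, 294.1 and 298.5 in Zat12, a 3.26-fold difference with an adjusted p of 0.00351. In both genes the groups did not overlap and wildtype replicate 1 was again far below its 2 partners. AT4G36600 had the largest difference of the family, 2.39 ± 0.43 (SE) on the log2 scale, at low signals of 17.2, 41.5 and 4.42 in wildtype and 124.2, 75.6 and 92.4 in Zat12. AT5G44310, AT5G66780, AT3G17520 and AtLEA4-1 had log2 differences of 1.89, 1.85, 1.76 and 1.55. LEA4-5, which is known from abscisic acid and drought responses, differed by 1.35 ± 0.27 (SE). Its adjusted p of 0.0137 became 0.0568 without wildtype + H2O2 replicate 1, 0.0664 without Zat12 + H2O2 replicate 1 and 0.0516 without Zat12 + H2O2 replicate 3.

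The cold-regulated members COR47 and LTI30, both dehydrins, and COR15B were not called. COR47 differed by -0.10 (adjusted p = 0.723), COR15B by -0.36 (adjusted p = 0.367) and LTI30 by 0.18 (adjusted p = 0.536). DI21, a drought-induced member, differed by 0.51 (adjusted p = 0.0557). In wildtype alone, the log2 difference between treated and untreated arrays was -0.09 for AT3G02480 (adjusted p = 0.836), -0.12 for AT3G15670 (adjusted p = 0.784) and -0.11 for LEA18 (adjusted p = 0.823). Per array, the median of the 21 members after centring each on its mean was -1.03, -0.23 and -0.44 log2 units in treated wildtype and 0.81, 0.46 and 0.57 in treated Zat12. Treated wildtype replicate 1 was low, and the groups still stood apart without it. Between 10 and 15 members were called higher under every alternative setting and with any array left out.

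**Figure D2:**
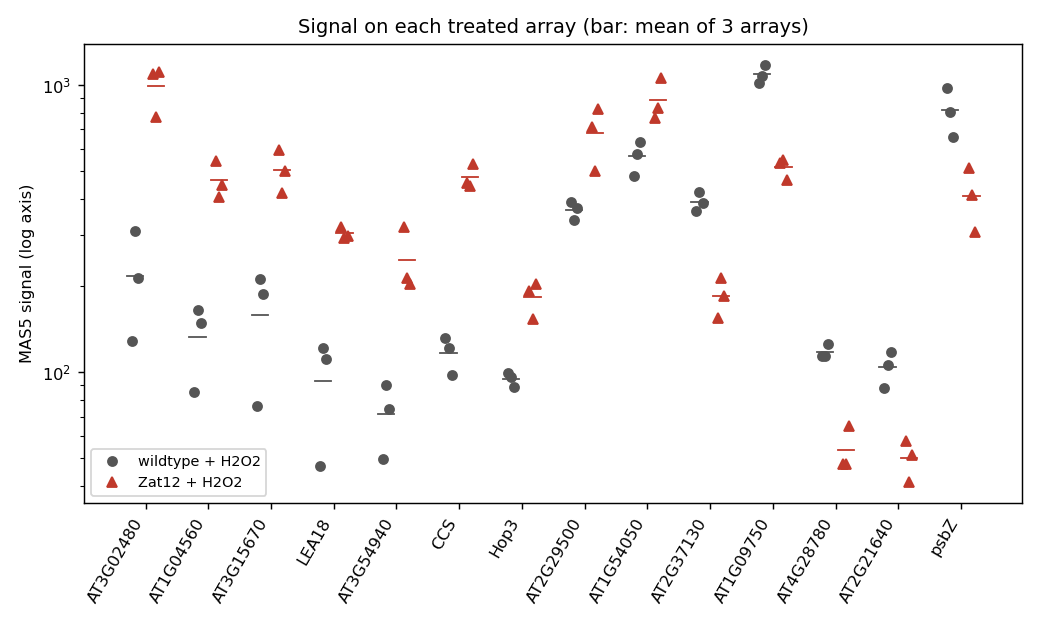
MAS5 signal (log axis) of 14 named genes on the 3 wildtype (grey circles) and 3 Zat12 (red triangles) arrays under H2O2, with bars at group means. The Zat12 arrays lie above the wildtype arrays for the 9 genes on the left, AT3G02480 to AT1G54050, and below them for the 5 on the right, AT2G37130 to psbZ.

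AT1G04560, a membrane protein of the AWPM-19 family, read 84.9, 165.0 and 148.0 in wildtype and 543.0, 406.5 and 449.3 in Zat12, a 3.51-fold difference (adjusted p = 0.000331). AT2G28490, a cupin of the seed storage type, read 12.2, 27.4 and 20.7 against 69.5, 69.9 and 70.4, and all 3 Zat12 arrays were nearly equal (adjusted p = 0.000815). ATOEP16-2, a channel protein of the outer plastid membrane, differed by 2.32 ± 0.39 (SE), from 27.4 ± 16.9 (SD, n = 3) to 133.2 ± 42.4 (SD, n = 3). Oleosins are the coat proteins of oil bodies, and their list was drawn up after the values were seen. Of 3 tested, AT3G01570 (1.04) and AT2G25890 (1.15) were called higher, against 1.52% of all probe sets. OLEO3 differed by 0.24 (adjusted p = 0.487). AT3G01570 lost its call without wildtype + H2O2 replicate 1 (adjusted p = 0.0524) or Zat12 + H2O2 replicate 1 (0.0564), and AT2G25890 without wildtype + H2O2 replicate 1 (0.0765), Zat12 + H2O2 replicate 1 (0.0836) or Zat12 + H2O2 replicate 2 (0.0746). ICL, the isocitrate lyase with which seedlings turn stored oil into sugar, was 1.56-fold higher, from 2008.8 ± 79.7 to 3125.0 ± 258.8 (SD, n = 3). Its adjusted p of 0.0208 rose above 0.05 without replicate 1 or 3 of treated wildtype (0.0764 and 0.0589) or replicate 1 or 2 of treated Zat12 (0.0869 and 0.0621). ICL was named after its values were seen. The seed storage proteins and oleosins listed as markers of seed tissue had no named probe set, so the share of seed material in the samples was not tested.

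Papain-type cysteine proteases, which degrade storage and other proteins in vacuoles, had 4 of 13 tested members higher and 1 lower, against 1.52% and 1.4% of all probe sets, with a list median of 0.10. This list and that of the serine carboxypeptidase-like proteases were drawn up after the values were seen. AT3G54940 read 49.7, 90.2 and 74.5 in wildtype and 319.4, 212.0 and 203.4 in Zat12, without overlap (log2 difference 1.74 ± 0.20 SE, adjusted p = 0.000168). CP1, AT4G01610 (a cathepsin B) and AT3G45310 differed by 0.99, 0.87 and 0.78, and AT4G16190 differed by -0.50. Only AT3G54940 was called when replicate 1 of treated wildtype, or replicate 2 or 3 of treated Zat12, was left out. Among 14 tested serine carboxypeptidase-like proteases 3 were higher and 1 lower, against 1.52% and 1.4% of all probe sets, with a list median of -0.10. The called scpl44, scpl48 and scpl29 differed by 0.89, 0.86 and 0.58 and scpl26 by -0.49 on the log2 scale. The call of scpl48 held with any array left out, while the calls of scpl44, scpl29 and scpl26 did not: without Zat12 + H2O2 replicate 3 their adjusted p was 0.0765, 0.0621 and 0.131.

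CCS, the chaperone that hands copper to copper/zinc superoxide dismutases, was the named gene with the smallest adjusted p. Its signals were 131.8, 121.1 and 97.8 in wildtype and 456.4, 445.7 and 529.7 in Zat12. The Zat12 arrays were 4.08-fold higher on average, far beyond the spread within either group (log2 difference 2.01 ± 0.13 SE, adjusted p = 6.35e-08). In wildtype its mean was 115.1 untreated and 116.9 treated. No superoxide dismutase itself had a named probe set. AT1G47400, which encodes an IRONMAN peptide of iron deficiency signalling, read 30.5, 32.9 and 22.7 in wildtype and 49.4, 64.3 and 52.2 in Zat12 (log2 difference 0.89 ± 0.19 SE, adjusted p = 0.0201). That call was lost without replicate 1 or 3 of treated wildtype (0.0555 and 0.0755) or replicate 2 or 3 of treated Zat12 (0.0765 and 0.0595). Without treatment AT1G47400 differed by 1.15 (adjusted p = 0.0126). The other tested members of the iron list, PYE and AT3G13610, differed by -0.03 and -0.10 under H2O2 and were not called.

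Among enzymes that remove hydrogen peroxide inside cells, none of 7 tested members was called, and their median was -0.19. The stromal and thylakoid ascorbate peroxidases SAPX and TAPX differed by -0.51 (adjusted p = 0.201) and -0.37 (adjusted p = 0.159). The SAPX signals were 252.7, 254.8 and 258.1 in wildtype and 177.9, 156.3 and 203.5 in Zat12, which do not overlap. SAPX was called lower when only the 6 treated arrays were fitted, with an adjusted p of 0.0315, or 0.0142 with the replicate number as a block. GR1, a glutathione reductase, differed by 0.06 (adjusted p = 0.821) and PRXIIF, the mitochondrial peroxiredoxin, by -0.06 (adjusted p = 0.855). GME, an enzyme of ascorbate synthesis, and GRXC2, a glutaredoxin, were called higher with log2 differences of 0.44 and 0.63, both named after their values were seen. Neither call was stable: without Zat12 + H2O2 replicate 1 the adjusted p was 0.159 for GME and 0.0929 for GRXC2, and each was lost in 11 of the 26 alternatives to the fit.

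Heat shock proteins bind other proteins that have unfolded. Of 9 tested members of the heat shock list 5 were called higher and none lower, against 1.52% higher among all probe sets, all 9 differences were above 0, and their median was 0.64. Hop3, a co-chaperone that links HSP70 and HSP90, read 99.2, 95.9 and 89 in wildtype and 191.8, 153.2 and 202.9 in Zat12. It was 1.93-fold higher without overlap (log2 difference 0.92 ± 0.17 SE, adjusted p = 0.00716), and only without Zat12 + H2O2 replicate 3 did its adjusted p reach 0.0519. The small heat shock protein AT2G29500 read 391.4, 338.1 and 373.3 in wildtype against 713.9, 501.0 and 823.9 in Zat12, where the lowest Zat12 array was still above all wildtype arrays. Its untreated wildtype mean was 19.9, and the log2 difference between treated and untreated wildtype was 4.05. The small heat shock protein AT1G54050 was 1.57-fold higher (adjusted p = 0.0234) and AT5G37670 was 1.54-fold higher (adjusted p = 0.0378). The list's 4 other members, AT1G53540, AT5G51440, AT5G48570 and ATHSP22.0, differed by 0.83, 0.65, 0.64 and 0.09 and were not called.

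In a wider list of chaperones and co-chaperones, drawn up after the values were seen and sharing Hop3, Fes1A and AT5G48570 with the heat shock list, 7 of 13 tested members were higher, against 1.52% of all probe sets, none was lower and the median was 0.52. AT2G20560, a DnaJ protein, read 117.7, 104.3 and 122.1 in wildtype and 214.4, 185.5 and 201.6 in Zat12 (adjusted p = 0.0168). Fes1A, a partner of HSP70, was 1.55-fold higher and Hsp70-2 was 1.46-fold higher. AT3G12050, an activator of HSP90, differed by 0.52 and AT2G35795, a DnaJ-like protein of mitochondria, by 0.60. Hop2 differed by 0.41, and its adjusted p of 0.049 became 0.0571 with the replicate number as a block. Fewer members of both lists were called with any 1 treated array left out. Without replicate 1, 2 or 3 of treated wildtype, 1, 1 and 2 heat shock members and 1, 2 and 2 of the wider list were called, and without replicate 1, 2 or 3 of treated Zat12 2, 4 and 0 and 1, 4 and 0.

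**Figure D3:**
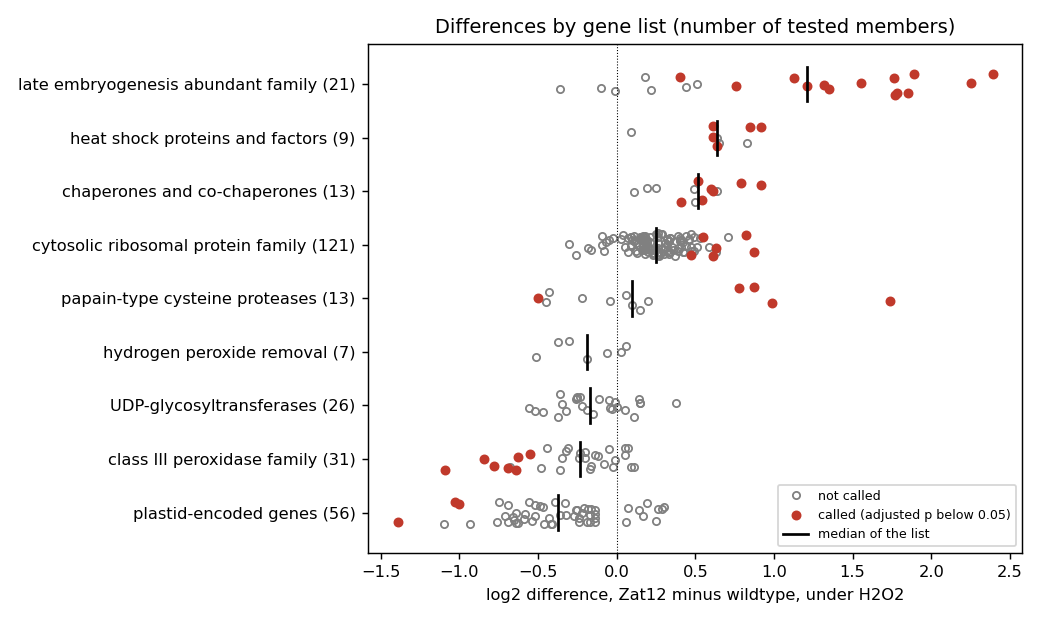
Log2 difference, Zat12 minus wildtype under H2O2, of every tested member of 9 gene lists, with called members filled and a bar at the list median. LEA genes (median 1.21), heat shock genes (0.64) and chaperones (0.52) lie mostly or wholly to the right of 0, with 3 of the 21 LEA genes to the left, and class III peroxidases (-0.23) and plastid-encoded genes (-0.38) mostly to the left.

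No tested regulator of the peroxide response on the ZAT, WRKY and ethylene response factor lists was called. Only 2 of 11, 3 of 21 and 2 of 17 listed genes were tested, so most of these regulators were not measured here. STZ read 1483.5, 1481.2 and 1338.2 in treated Zat12, a log2 difference of 0.20 ± 0.26 (SE) with an adjusted p of 0.77. WRKY53 and WRKY22, transcription factors of stress and senescence, differed by 0.38 (adjusted p = 0.471) and 0.30 (adjusted p = 0.332). The ethylene response factors AT5G61890 and AT5G07580 differed by -0.41 (adjusted p = 0.414) and -0.38 (adjusted p = 0.0708). AT5G07580 was called lower without untreated wildtype replicate 2 (0.042) and when the 25S control was a covariate (0.0447). CML42, a calmodulin-like protein, read 373.0, 373.8 and 366.4 in wildtype and 495.3, 505.4 and 651.9 in Zat12 (log2 difference 0.56 ± 0.12 SE, adjusted p = 0.0169). Its adjusted p was 0.0585, 0.0576 and 0.094 without replicate 1 of treated wildtype, replicate 3 of treated wildtype or replicate 3 of treated Zat12. AT1G19020, whose log2 difference between treated and untreated wildtype was 3.49, was 1.68-fold higher in treated Zat12 than in treated wildtype, from 564.3, 570.1 and 565.9 to 857.7, 830.5 and 1171.0. AT1G72940, a protein of the TIR-NBS resistance type, read 178.6, 186.4 and 180.0 in wildtype and 126.0, 112.0 and 134.8 in Zat12 (log2 difference -0.54, adjusted p = 0.0273). Leaving out any of the 6 treated arrays brought the adjusted p of AT1G72940 above 0.05, up to 0.0965. CML42, AT1G19020 and AT1G72940 were named after their values were seen.

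PRH75, a DEAD-box RNA helicase of the nucleolus, read 229.3, 269.5 and 230.0 in wildtype and 440.4, 493.3 and 453.5 in Zat12, a 1.9-fold difference (log2 0.92 ± 0.12 SE, adjusted p = 0.000763). NRPB12 and NRPB7, subunits of RNA polymerases, differed by 0.83 (adjusted p = 0.00996) and 0.74 (adjusted p = 0.0208). Their adjusted p without Zat12 + H2O2 replicate 1 was 0.0501 and 0.0572, without Zat12 + H2O2 replicate 3 it was 0.0505 and 0.108, and NRPB7 gave 0.0982 without wildtype + H2O2 replicate 1. AT1G75200, named by annotation only by its locus, read 23.1, 8.69 and 25.3 in wildtype and 59.3, 67.7 and 53.9 in Zat12 (adjusted p = 0.00258). PRH75, NRPB12 and NRPB7 were named after their values were seen.

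Among 121 tested cytosolic ribosomal proteins 6 were called higher and none lower, a share of 4.96% against 1.52% of all probe sets. The median was 0.25, and 111 of the 121 differences were above 0. Without treatment the list looked much the same, with a median of 0.19 and 112 of the 121 differences above 0. AT1G80750 (0.82, adjusted p = 0.00537) and AT5G56710 (0.61, adjusted p = 0.00894) were called with any array left out. AT5G56710 read 972.1, 1002.4 and 1139.2 in wildtype against 1597.6, 1534.9 and 1620.1 in Zat12. The count rose to 18 with the replicate number as a block over 12 arrays and to 31 over the 6 arrays compared. Without wildtype + H2O2 replicate 1 it was 2, without wildtype + H2O2 replicate 3 it was 10, without untreated wildtype replicate 2 it was 17, and without Zat12 + H2O2 replicates 1, 2 and 3 in turn it was 2, 3 and 2. The list was drawn up after the values were seen, and near-identical copies of ribosomal protein genes can share probes.

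Class III peroxidases are secreted enzymes that use peroxide to cross-link or loosen cell walls. Of 31 tested members of the family 7 were lower and none higher, against 1.4% lower among all probe sets, with a median of -0.23. This list was drawn up after the values were seen. An earlier, shorter list had 3 tested members, Prx37, AT5G66390 and AT5G64120, of which none was called (-0.48, -0.35 and -0.12). Prx37 was called lower over the 6 treated arrays with the replicate number as a block (adjusted p = 0.0235 against 0.0851). AT2G37130 read 363.5, 424.5 and 389.1 in wildtype and 154.0, 213.3 and 184.0 in Zat12, a 2.13-fold difference without overlap (log2 -1.09 ± 0.12 SE, adjusted p = 0.000168). PRXR1 read 1190.7, 1352.5 and 1179.7 against 807.6, 958.3 and 780.9 (adjusted p = 0.00894), and without Zat12 + H2O2 replicate 3 its adjusted p was 0.0548. AT4G30170, AT5G40150, AT2G18980, AT5G51890 and AT5G17820 differed by -0.84, -0.78, -0.69, -0.64 and -0.63. AT5G17820 also stood on a list of root markers, where it was 1 of 4 tested members called. The root markers PYK10, EXPA7 and AT4G26010 differed by 0.07, -0.13 and -0.68 (adjusted p = 0.826, 0.787 and 0.204), and the part of organ proportions in the peroxidase differences was not tested. Without Zat12 + H2O2 replicate 1 or 3, 3 and 2 peroxidases were called, and without wildtype + H2O2 replicate 3, 4. AT2G37130 and AT5G40150 were called throughout.

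The largest differences among named genes on the lower side included a protease, a lipase and a lectin. AT1G09750, an aspartyl protease, read 1018.4, 1072.4 and 1175.7 in wildtype and 533.6, 550.1 and 468.3 in Zat12, a 2.1-fold difference (adjusted p = 3.77e-05). AT4G28780, a lipase of the GDSL type, read 113.4, 114.0 and 125.3 against 47.9, 48 and 64.8, a 2.2-fold difference (adjusted p = 0.0004). AT1G52070, a jacalin-type lectin, read 57, 77.1 and 87.6 against 22.9, 32.3 and 23.9, a 2.81-fold difference (adjusted p = 0.000451). In all 3 the groups were clear of each other. AT4G24100, AT2G47010, AT3G49160, AT2G24580, AT2G36885 and AT1G28090 were also called lower, by -1.04, -1.03, -1.02, -0.92, -0.91 and -0.91. Among these only the call of AT2G36885 held with any array left out. The aspartyl protease AT3G54400 and the beta-expansin EXPB3 differed by -0.88 (adjusted p = 0.00184) and -0.79 (adjusted p = 0.00172), and both were named after their values were seen.

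AT2G21640, a marker of oxidative stress in mitochondria, read 88.1, 105.8 and 117.4 in wildtype and 57.5, 41.3 and 51.4 in Zat12 (log2 difference -1.01 ± 0.17 SE, adjusted p = 0.00401). It was the 1 called member of 4 tested on the mitochondrial stress list, where AT2G04050, a transporter of the MATE type, differed by 1.32 without a call (adjusted p = 0.123). GSTU20, a glutathione transferase, read 144.0, 202.6 and 209.2 against 90.6, 106.8 and 94.5 (adjusted p = 0.0139). Its adjusted p was 0.056 and 0.0616 without wildtype + H2O2 replicates 2 and 3, and 0.0622 and 0.0567 without Zat12 + H2O2 replicates 1 and 3. The other 4 detoxification genes tested, GSTU25, GSTU22, AER and UGT73B5, differed by between -0.31 and 0.15 and were not called. None of 26 tested members of the UDP-glycosyltransferase list (median -0.17) and no cytochrome P450 of 8 (median 0.06) was called. The first list was drawn by gene symbols and synonyms and also took in XTH33 (0.15), whose symbol is of another enzyme family. DFR and CHIL, which act in flavonoid synthesis, differed by -0.64 (adjusted p = 0.0322) and -0.69 (adjusted p = 0.0325). Each was named after its values were seen and was lost in 7 alternatives, with adjusted p of up to 0.104 and 0.13.

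CaS, the calcium-sensing protein of thylakoids, read 759.0, 828.5 and 763.0 in wildtype and 471.4, 552.7 and 537.3 in Zat12, a 1.51-fold difference (adjusted p = 0.0048). LrgB, the plastid carrier of glycolate and glycerate, SBPASE of the Calvin cycle and NdhN of the NADH dehydrogenase-like complex differed by -0.59, -0.47 and -0.40. These 4 nuclear genes were named after their values were seen and stand for no tested list. Only the call of CaS held with any array left out. Without wildtype + H2O2 replicate 1 the adjusted p of LrgB, SBPASE and NdhN was 0.164, 0.182 and 0.0756.

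Of 56 tested plastid-encoded genes 3 were called lower (5.36%, against 1.4% of all probe sets) and none higher, with a median of -0.38 and 47 differences below 0. psbZ, a small subunit of photosystem II, read 980.1, 808.0 and 661.3 in wildtype and 512.2, 413.5 and 306.6 in Zat12 (adjusted p = 0.0316). psbT, another such subunit, read 176.6, 58.3 and 92.4 against 39.3, 24.8 and 46.8 (adjusted p = 0.0352), and rps2, a plastid ribosomal protein, 163.7, 229.2 and 189.2 against 85.6, 129.0 and 72.2 (adjusted p = 0.0171). The groups did not overlap in any of these 3 genes, although the replicates of psbT spread widely. The call of psbT was lost without replicate 1 or 3 of treated wildtype (adjusted p = 0.182 and 0.0801) or any array of treated Zat12 (0.0846, 0.127 and 0.0606). That of psbZ was lost without replicate 1 or 2 of treated wildtype (0.133 and 0.0824) or replicate 2 or 3 of treated Zat12 (0.0724 and 0.159). That of rps2 was lost without replicate 2 of treated wildtype (0.0727) or replicate 1 or 3 of treated Zat12 (0.0712 and 0.0943). With the replicate number as a block 5 were lower over 12 arrays and 26 over the 6 arrays compared, and 10 when the 25S control entered the fit as a covariate, settings under which 215, 480 and 312 of all probe sets were lower. Without wildtype + H2O2 replicates 1, 2 and 3 in turn the count was 1, 1 and 2. Without Zat12 + H2O2 replicates 1, 2 and 3 in turn it was 1, 1 and 0. It was 7 without untreated wildtype replicate 2, and 5 without untreated Zat12 replicate 1 or 2. Array by array, the median of the 56 genes after centring was 0.75, 0.46 and 0.28 in treated wildtype and 0.42, 0.06 and -0.13 in treated Zat12, so the groups overlapped. Between same-numbered arrays, Zat12 minus wildtype was -0.33, -0.40 and -0.41, though the labels do not say that the numbers pair the arrays. The 25S control was 295.2, 274.1 and 125.7 and 260.5, 286.4 and 133.4 on the same arrays. Beyond the covariate fit, its part in the result was not tested.

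**Figure D4:**
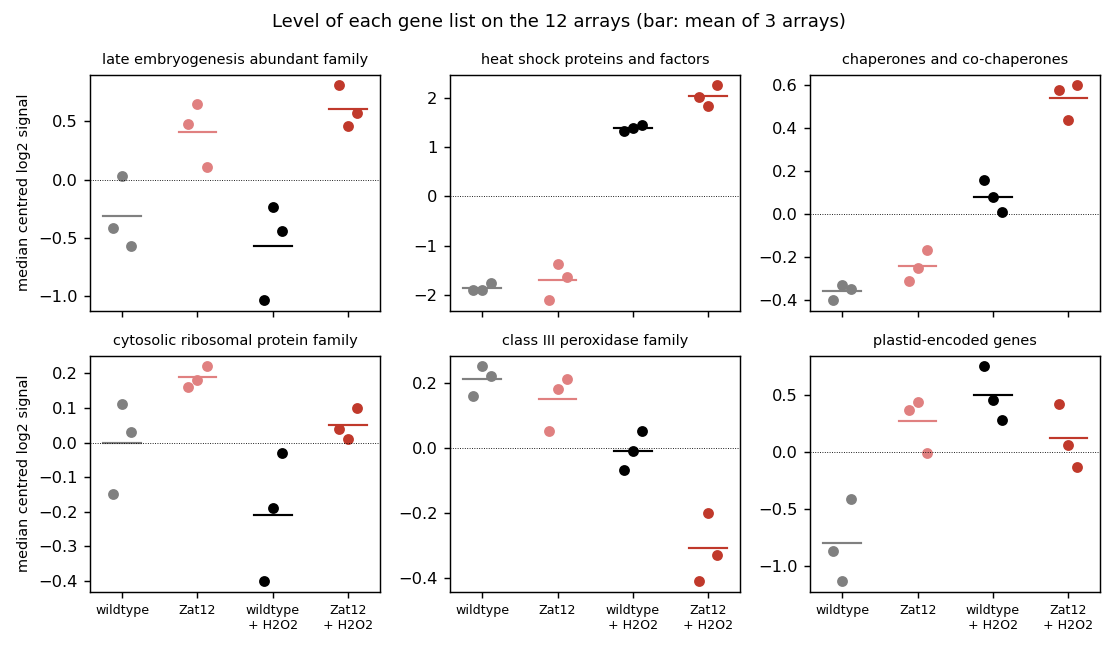
Level of 6 gene lists on each of the 12 arrays, as the median over members of log2 signal centred on each member's mean, with bars at means of 3 arrays. LEA genes are higher in both Zat12 groups, heat shock genes and chaperones are highest in treated Zat12, and plastid-encoded genes are lowest in untreated wildtype (-0.87, -1.13 and -0.41).

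Probe sets without a gene in the annotation included some of the largest differences. 254098_at read 3485.4, 3315.8 and 3251.9 in wildtype and 32.3, 131.0 and 95.4 in Zat12, a 38.9-fold difference (log2 -5.44 ± 0.37 SE, adjusted p = 2.63e-07). 261364_at read 62.6, 70.1 and 45.1 against 10.9, 8.19 and 9.87, a 6.13-fold difference (adjusted p = 0.000532). On the higher side, 247655_at read 203.8, 286.0 and 267.3 against 983.1, 1017.3 and 1080.5 (adjusted p = 3.59e-08), and 262128_at 95.2, 201.9 and 148.0 against 682.7, 469.1 and 607.9 (adjusted p = 0.000298). The 4 are separated without overlap, and their calls held with any array left out. Which genes these 4 measure was not examined, so the over-expressed gene itself may be among them.

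The same genotype difference was measured without peroxide in 6 other arrays, 3 of untreated Zat12 and 3 of untreated wildtype, which share no array with the treated groups. There, 99 probe sets (0.725%) were higher and 68 (0.498%) lower in Zat12. Of the 207 probe sets higher under H2O2, 39 were also higher without it, which is 18.8% of the treated and 39.4% of the untreated calls. Of the 191 lower ones 34 were lower in both, or 17.8% of the treated and 50.0% of the untreated calls. The untreated difference had the same sign in 185 of the 207 (89.4%) and in 171 of the 191 (89.5%), where 49.6% of all probe sets were positive and 50.4% negative. Their median untreated differences were 0.37 and -0.27. These were smaller than under peroxide, where the probe sets had been picked for passing the test, which favours large differences there. Across all probe sets the untreated and treated differences had a Pearson's r of 0.356, a description over probe sets, which are not independent replicates. Calls without treatment depended on the arrays too. Higher and lower counts were 46 and 24 without untreated wildtype replicate 1, and 26 and 16 or 45 and 25 without untreated Zat12 replicate 1 or 2. Without untreated wildtype replicate 3 there were 168 higher, and the lower count was 33 without untreated Zat12 replicate 3 and 42 without wildtype + H2O2 replicate 3. The shared calls ranged from 11 to 50 higher and from 12 to 34 lower, and were fewest, 11 and 12, without untreated Zat12 replicate 1. They were 19 and 16 without untreated wildtype replicate 1 and 18 and 15 without untreated Zat12 replicate 2. The shared lower calls alone were 16 without untreated Zat12 replicate 3, 18 and 17 without replicates 2 and 3 of treated wildtype, and 21 without each array of treated Zat12.

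CCS was called higher in both comparisons. Its untreated signals were 112.9, 127.9 and 104.5 in wildtype and 411.9, 472.6 and 465.8 in Zat12, and the log2 difference was 1.94 without and 2.01 with H2O2. 254098_at differed by -5.70 without and -5.44 with it, with 1 of the 3 untreated Zat12 arrays empty for this probe set. AT3G54940 differed by 1.66 and 1.74, AT1G04560 by 1.46 and 1.83 and AT3G02480 by 1.40 and 2.25. Of the 21 LEA genes, 6 were higher without treatment, against 0.725% of all probe sets, with a median of 0.84. AT2G21640 (-1.08 and -1.01), AT1G09750 (-0.77 and -1.07) and CaS (-0.80 and -0.59) were lower in both. AT1G04560 also had no untreated value on 1 Zat12 array.

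AT5G37670, with an untreated difference of 0.71 (adjusted p = 0.0298), was the 1 heat shock gene called without treatment, and the median of the 9 was -0.03. The untreated difference was -0.32 for Hop3 and -0.03 for AT2G29500. Of the peroxidases AT2G37130 was called (-0.77, adjusted p = 0.0101), and the family median was -0.10. Whether the genotype difference itself differed between the treated and untreated arrays was tested as an interaction, which was not called for any heat shock gene, chaperone, LEA gene or peroxidase on these lists. Hop3 came nearest among the named members of these groups, with an interaction of 1.24 and an adjusted p of 0.0589.

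**Figure D5:**
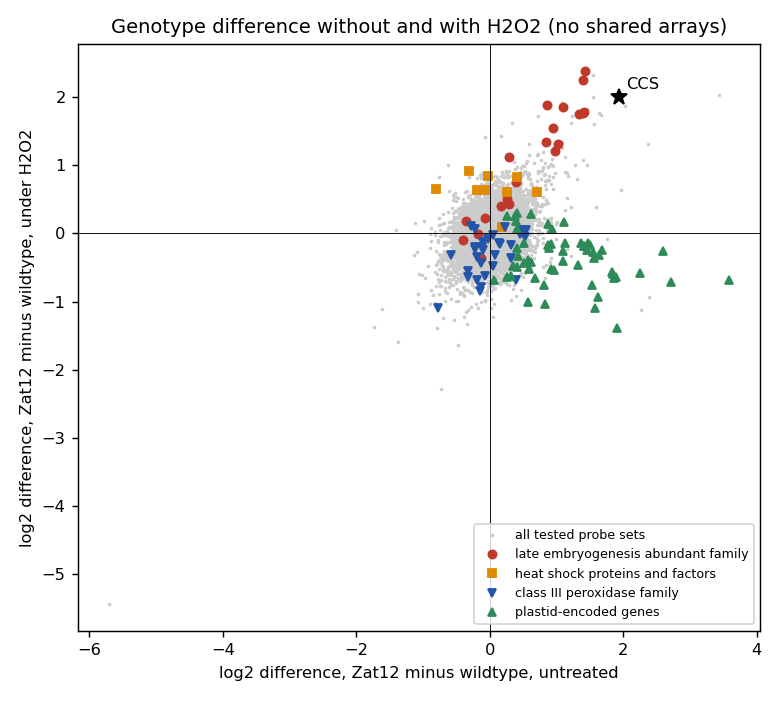
Log2 difference between Zat12 and wildtype without treatment (horizontal) and under H2O2 (vertical) for every tested probe set with both values, in arrays that the axes do not share. CCS is the star at 1.94 and 2.01, and the LEA genes (medians 0.84 and 1.21) are mostly in the upper right. Heat shock genes (medians -0.03 and 0.64) lie on both sides of 0 horizontally and above 0 vertically, and plastid-encoded genes to the right and mostly below 0.

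The interaction was called for 15 probe sets (0.11%), all with a lower genotype difference under H2O2, and 12 of them were plastid-encoded. No interaction with a higher genotype difference under H2O2 was called by limma. Of the 13647 probe sets tested, 448 had an unadjusted p below 0.05 in that direction and 523 in the lower one. psaA, a core protein of photosystem I, had a mean of 46.6 in untreated wildtype and 456.9 in untreated Zat12, a log2 difference of 3.58. Under H2O2 it read 555.0, 377.6 and 291.3 in wildtype and 338.8, 206.7 and 205.5 in Zat12, with overlap between the groups. The difference was -0.69 (adjusted p = 0.471). At each replicate number Zat12 was lower, though the labels do not say that the numbers pair the arrays. With the replicate number as a block over the 6 treated arrays psaA, psbC and psaB were called lower (adjusted p = 0.00321, 0.00124 and 0.0113). The interaction of psaA was -4.27 (adjusted p = 0.0071). For psbC of photosystem II and psaB of photosystem I the interactions were -3.42 and -2.83. All 56 plastid-encoded genes were positive without treatment, with a median of 0.94. Of these 27 were called higher, against 0.725% of all probe sets. The 25S control was 55.9, 32.9 and 125.3 in untreated wildtype against 146.8, 275.4 and 96.3 in untreated Zat12. The ratio of 3' to 5' signals of the actin control was 9.5, 6.36 and 3.85 in untreated wildtype against 5.56, 4.23 and 4.76 in untreated Zat12. For ubiquitin this ratio was 2.65, 2.67 and 2.22 against 2.75, 2.33 and 2.26. Beyond the fit with the 25S control as a covariate, the part of these controls in the interactions was not tested. 247655_at was called in both comparisons in the same direction, with a difference of 3.43 without and 2.03 with H2O2, and its interaction was -1.41 (adjusted p = 0.00145). Without untreated wildtype replicates 1, 2 and 3 in turn there were 8, 7 and 44 lower interactions, and 9 without untreated Zat12 replicate 2. Without wildtype + H2O2 replicates 1 and 2 there were 7 and 9, and without Zat12 + H2O2 replicates 1, 2 and 3 there were 24, 7 and 6.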

How the data were processed

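Each array's value per probe set is the linear intensity (signal) of MAS5, as the submitters' processing notes name it. The MAS5 version is not given in the sources used here, and detection calls were not used. The authors had scaled the deposited intensity to a mean of 100.01 on 11 arrays and 100.1 on the twelfth (2% trimmed at each end), which hides any change common to most transcripts. Untreated Zat12 replicate 2 had 6408 empty cells, left empty, and the 6 treated arrays had none. Groups came from the sample titles. Of 22746 probe sets that are no control, 13513 had 1 gene in the platform annotation, 503 several and 8730 none. The gene of 13436 of the 13513 was found in RefSeq.

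Signals were turned into log2(signal + 3), which understates differences of low signals. Probe sets above the 40th percentile of mean log2 signal (4.96, a signal of 28.1) were tested, 13647 in all and 7360 with 1 gene. limma 3.58.1 in R 4.3.3 fitted the 4 groups of all 12 arrays together, with a mean-variance trend, 8 residual and 9.12 prior degrees of freedom and Benjamini-Hochberg adjustment at 0.05 over the 13647. SE is that of the fit. Python 3.11.15, pandas 2.3.3 and matplotlib 3.10.9 were used for summaries and plots. The code was tested on simulated arrays. Precision is limited by 3 arrays per group.

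The comparison, the 26 gene lists and the rules were chosen with earlier results of these data known, and 7 lists (LEA, oleosin, chaperone, ribosomal protein, class III peroxidase family, papain-type and carboxypeptidase-like) and some genes, marked so in the text, were added after values were seen. Named by rule were the 15 largest called differences in each direction with 1 gene and groups apart, up to 4 called members per list (2 of the largest where none was called), up to 2 called probe sets without a gene per direction, the 5 largest interactions, and up to 8 genes called in both genotype comparisons. Not every gene named by rule is described in the text. Of 287 genes listed by locus only 59 had a named probe set, and 7 of the 26 lists had none. Among these were jasmonate, extensin, aconitase and seed marker genes. The 2 named salicylate genes were below the filter. The 4 reference genes tested were not called (median 0.10), nor were 3 cold-regulated genes (median -0.10).

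The labels share replicate numbers between groups. Deviations from group means of same-numbered treated arrays correlated at 0.122, 0.141 and 0.140. These values are weak, and the labels do not say that the numbers pair the arrays, so fits with the block are alternatives only. The values printed come from the fit without the block, and the fit with the block is given where it changes a call or a count. For same-numbered untreated arrays the values were -0.030, -0.254 and -0.113, while wildtype replicate 3 and Zat12 replicate 2, both untreated, reached 0.214. Alternatives were the scaling, offset, filter, trend, threshold, arrays in the fit, replicate block, the 25S control as a covariate, the probe sets kept and each array left out.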

Additional observations from a re-analysis of the deposited data

Results flagged for a closer look

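The genotype difference under H2O2 was unlike that without treatment, by the interaction test, for 15 probe sets. Plastid-encoded genes made up 12 of them. The interaction was -4.27 for psaA, -3.42 for psbC, -3.28 for psbT, -2.85 for petL, -2.83 for psaB and -1.86 for rps2, on the log2 scale. psbT differed by 1.90 without treatment and by -1.39 under H2O2, both called, although its call under H2O2 was lost in 7 alternatives (adjusted p up to 0.182). The probe set 247655_at, with no gene in the annotation, had an interaction of -1.41 and was higher in Zat12 with and without peroxide. Whether 247655_at measures ZAT12 itself was not examined. Groups of 3 arrays are too small for a search for single outlying samples.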

How the results depend on the processing

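No called difference under H2O2 of a named gene changed its sign under any of the 26 alternatives to the fit, and 36 of 94 named calls held under each of those in which the gene was tested. The counts of 207 higher and 191 lower probe sets became 53 and 49 at an adjusted p of 0.01, 131 and 121 without the filter, 106 and 89 without the mean-variance trend, 341 and 312 when the 25S control was a covariate, and 533 and 480 over the 6 arrays with the replicate block, an alternative chosen after seeing the data. With 1 array left out they ranged from 53 to 328 and from 67 to 302. The untreated counts of 99 and 68 became 30 and 17, 37 and 23, 40 and 21, and 31 and 17 under the same first 4 settings, 45 and 25 without the array that has empty cells, and 62 higher without plastid-encoded probe sets, with ranges of 26 to 168 and 16 to 74. The 15 lower interactions became 6 at the stricter threshold, 3 without the filter, 3 without the trend, 9 without the array with empty cells, 8 with the 25S covariate and 3 without plastid-encoded probe sets, and 6 to 44 with 1 array left out. The 0 higher interactions became 2 under median scaling, 2 with 4 times the offset, 1 with the stricter filter and 1 without the array with empty cells, and 0 to 4 with 1 array left out. The causes were not tested, except that a stricter threshold can only remove calls. Under the replicate block over 12 arrays (250 and 215), Hop2 (0.0571) and AT3G53040 (0.0633) lost their calls, and it changed no other named call. The median of all probe sets stayed between -0.022 and 0.001. With 3 arrays per group, differences under 2-fold at low signal are those most easily missed.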
